A study of Mus musculus with 9 samples.

Results

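The subunits of oxidative phosphorylation were measured as transcripts in single cells of the mouse brain. Members were chosen by gene symbol alone, from the stems mt-Nd, mt-Co, mt-Atp and mt-Cytb for the mitochondrial genes, and Nduf (a, b, c, s or v and a digit), Sdh (a to d), Uqcr, Cox (4 to 8) and Atp5 for the nuclear ones, and 96 of the 18634 genes qualified. Subunits named otherwise, such as Ndufab1 of complex I and Cyc1 of complex III, are not members. Of these, 13 are encoded by the mitochondrial genome and 83 by the nucleus. The symbol rule also takes Atp5s and Atp5sl, which RefSeq now lists as Dmac2l and Dmac2.

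Brainstem, cortex and hypothalamus were taken from wild-type C57BL/6 mice (male C57BL/6J in the study's methods) aged 9 to 11 weeks at lights off, in a normal sleep (NS) group, a sleep deprived (SD) group kept awake for 12 h of the light phase, and a recovery sleep (RS) group allowed to sleep after the same deprivation. Each library pooled 3 animals, so that no animal can be followed. The labels give the recovery as 24 h in 1 place and as 12 h in another. Tissue was dissociated with papain and cleared of myelin with beads, and 1 library was made for each of the 9 combinations of region and sleep group.

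The table held 29571 cells from 9 libraries, with between 2575 and 3916 cells and between 1522766 and 5488950 unique molecular identifiers (UMIs, each counting 1 captured transcript) per library, and medians of 402 to 1055 UMIs per cell. Library codes are not explained by the labels, so libraries are numbered 1 to 9 in table order. Library 7 was tied to Brainstem NS, because all 1999 cell barcodes listed with a cell type for that sample were in it, against 5 to 13 in each other library. The labels do not tie the other 8 libraries to a region or sleep group, so neither regions nor sleep groups were compared. Pairs of libraries shared 5 to 25 barcodes. Libraries 4, 5 and 6 stood apart, since 7 pituitary hormone genes made up 30.3%, 30.0% and 37.9% of their UMIs, against at most 0.00959% in any other library. With 1 library per combination there is no replicate spread. No test across libraries was run, since 8 of them are tied to no combination. Intervals in brackets are exact 95% intervals and cover counting error only.

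Oxidative phosphorylation passes electrons along complexes I to IV of the inner mitochondrial membrane and uses the proton gradient they build to make ATP at complex V. Complexes I, III, IV and V each combine a few core subunits made from mitochondrial DNA with many made in the nucleus and imported, whereas complex II, succinate dehydrogenase, is wholly nuclear. Neurons depend heavily on this route, and astrocytes are known for strong glycolysis.

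The mitochondrial genes lie close together on 1 circular genome, and some share bases, which bears on how far reads can be told apart. In the GENCODE vM21 annotation of GRCm38, 12 of the 13 are on the plus strand of chrM and mt-Nd6 is on the minus strand. The genes run from mt-Nd1 at chrM:2751-3707 to mt-Cytb at chrM:14145-15288, and all 13 are annotated as protein coding. The 3 longest shared stretches are shown on the plus strand, 12 bases of the first gene followed by the shared bases in capitals. These are chrM:7915-7969 for the genes of 2 subunits of ATP synthase, chrM:10155-10173 for a pair of complex I genes, and chrM:13540-13565 for a pair of complex I genes on opposite strands.
mt-Atp8 into mt-Atp6: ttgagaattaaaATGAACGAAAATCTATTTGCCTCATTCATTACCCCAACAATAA
mt-Nd4l into mt-Nd4: caacctactacaATGCTAA
mt-Nd5 against mt-Nd6: tcttatactcaaTTAATCTCGAGTAA

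The first pair shares 43 bases, the second 7 and the third 14, and mt-Atp6 and mt-Co3 share 1 base. How reads over the shared bases were assigned was not tested.

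Among the 83 nuclear genes, 69 had a promoter sequence in RefSeq (GRCm38.p6), 75 promoters in all. The 250 bases before the start were searched on both strands for the core site of NRF1, a transcription factor known for respiratory genes (GCGCA, any base, GCGC), for the core of ETS factors (CCGGAAG) and for the CCAAT box (CCAAT). The NRF1 letters were in 14 of the 75 promoters, 18.7%, against 3.74% of all 32851 promoters of that length. The ETS letters were in 12 of the 75 against 6.91% of all, and CCAAT in 42.7% against 33.8%. As examples of promoters with and without these letters, shown are those of Cox6a1 at chr5:115348959-115349208, with 2 NRF1 matches and 1 ETS match, of Atp5g2 at chr15:102671048-102671297, with 1 NRF1 match, and of Cox8a at chr19:7217617-7217866, with neither. All 3 genes are on the minus strand, and capitals mark the NRF1 and ETS letters.
Cox6a1: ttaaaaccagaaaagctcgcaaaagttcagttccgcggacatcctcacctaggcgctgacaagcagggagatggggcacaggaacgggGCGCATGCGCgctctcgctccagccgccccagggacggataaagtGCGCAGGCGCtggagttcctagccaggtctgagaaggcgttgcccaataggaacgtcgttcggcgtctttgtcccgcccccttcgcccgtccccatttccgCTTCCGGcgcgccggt
Atp5g2: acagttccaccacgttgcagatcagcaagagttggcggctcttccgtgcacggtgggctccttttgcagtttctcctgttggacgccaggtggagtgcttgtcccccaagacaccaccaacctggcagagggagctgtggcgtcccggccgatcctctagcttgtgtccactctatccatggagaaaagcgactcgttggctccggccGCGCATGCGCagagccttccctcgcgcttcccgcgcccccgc
Cox8a: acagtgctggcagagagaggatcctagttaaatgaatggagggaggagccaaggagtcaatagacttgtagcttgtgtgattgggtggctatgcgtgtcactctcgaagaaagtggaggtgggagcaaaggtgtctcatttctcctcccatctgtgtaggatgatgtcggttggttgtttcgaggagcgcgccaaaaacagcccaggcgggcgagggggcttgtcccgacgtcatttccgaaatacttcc

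A match is a run of letters and not a site shown to be used, and no relation of matches to levels was tested. Promoters of Cox4i1, Cox4i2 and Ndufa4l2 were not used here.

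The 13 mitochondrial genes took 7.12% of all UMIs and the 83 nuclear genes 2.66%, a mitochondrial to nuclear ratio of 2.68. Between libraries the mitochondrial share moved far more than the nuclear share. From library 1 to library 9 the mitochondrial share was 7.69%, 7.88%, 6.97%, 4.18%, 4.64%, 2.55%, 8.58%, 9.64% and 12.3% of UMIs. Libraries 4 to 6 were the 3 lowest and libraries 7 to 9 the 3 highest. No 95% interval of these shares overlapped another, but the intervals cover counting error only. In cells of at least 1000 UMIs libraries 1 and 2 had 4.81% and 4.42%. Without cells over 10% mitochondrial UMIs the shares of libraries 1 to 9 were 4.93%, 4.63%, 4.39%, 3.45%, 3.53%, 2.45%, 4.98%, 5.81% and 6.97%. The nuclear share, in the same order, was 3.15%, 3.07%, 3.14%, 2.13%, 2.00%, 2.12%, 2.69%, 2.76% and 3.22%. Here too libraries 4 to 6 were lowest, but the other 6 lay within 2.69% to 3.22%.

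**Figure D1:**
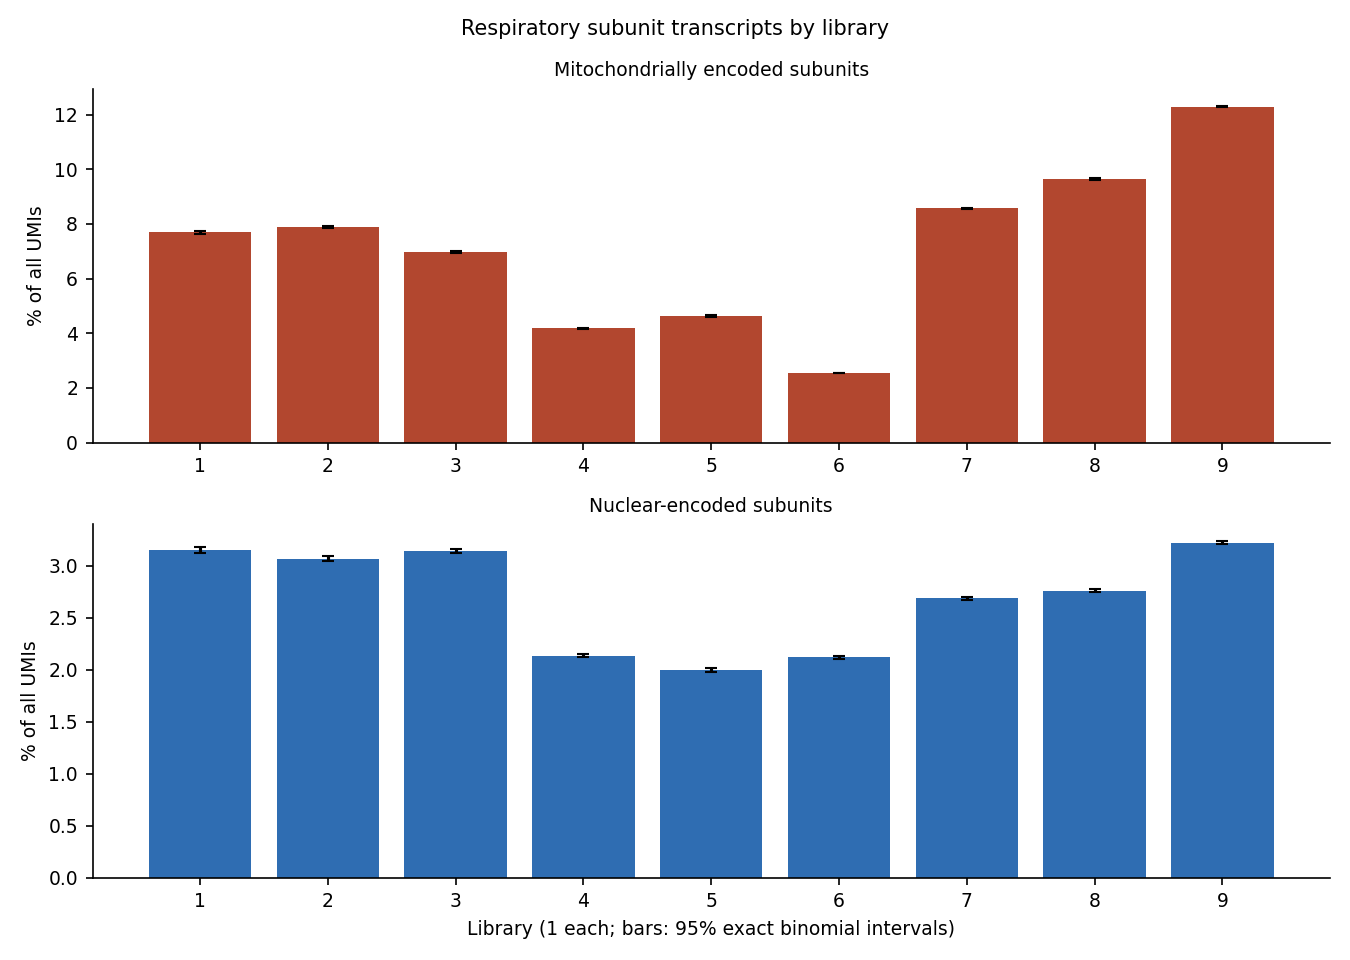
Share of all UMIs (%) taken by the 13 mitochondrially encoded subunits (top) and the 83 nuclear-encoded subunits (bottom) in each of the 9 libraries, with exact 95% binomial intervals. The mitochondrial share spans 2.55% to 12.3%, and the nuclear share 2.00% to 3.22%.

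The highest mitochondrial share, in library 9, was 4.83 times that of library 6. The highest nuclear share, also in library 9, was 1.61 times that of library 5. Its first place depended on the cells kept. In cells of at least 1000 UMIs library 1 had 3.46% and library 9 3.32%, and without cells over 10% mitochondrial UMIs library 3 had 3.27%, library 1 3.26% and library 9 2.99%. The mitochondrial to nuclear ratio was 2.44, 2.57, 2.22, 1.96, 2.32, 1.20, 3.19, 3.49 and 3.82 in libraries 1 to 9. Libraries 7, 8 and 9 each held more than 3 mitochondrial UMIs per nuclear one and library 6 barely more than 1. In cells of at least 1000 UMIs libraries 1 and 2 had ratios of 1.39 and 1.34, below the 1.76 and 1.88 of libraries 4 and 5, and libraries 7, 8 and 9 had 2.96, 3.27 and 3.62. Without cells over 10% mitochondrial UMIs the ratios were 1.51, 1.45, 1.34, 1.61, 1.78, 1.16, 1.90, 2.12 and 2.33 in libraries 1 to 9, so that none exceeded 3. A share falls when other transcripts fill a library, so the shares were also taken without the hormone genes. Out of UMIs other than mitochondrial, hemoglobin and hormone genes, the nuclear share was 3.27%, 3.08% and 3.56% in libraries 4, 5 and 6, beside 3.17% to 3.88% in the other 6. Library 6 had the second highest value on that scale after library 9. The mitochondrial share without hemoglobin and hormone UMIs was still lowest in library 6, at 4.11%, and highest in library 9, at 12.9%. Hemoglobin genes made up 6.79%, 3.22% and 4.83% of UMIs in libraries 7, 8 and 9 and at most 0.824% elsewhere.

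The spread between single cells was wide within every library. The median cell had 2.22% mitochondrial UMIs in library 6 and 9.83% in library 9. In library 9, 1813 cells, 48.8% (47.2% to 50.5%), exceeded 10% mitochondrial UMIs, against 52 cells, 1.33% (0.993% to 1.74%), in library 6. Nuclear subunits were seen in nearly all cells, since 73 of the 29571 had none of their UMIs.

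The 13 mitochondrial genes did not keep the same proportions between libraries. mt-Atp6, the membrane subunit of ATP synthase that carries protons, was the most abundant in libraries 1, 2, 7, 8 and 9, and mt-Co3, a core subunit of complex IV, in libraries 3 to 6. Out of the mitochondrial UMIs, mt-Atp6 made up 23.3%, 24.1%, 22.7%, 19.2%, 21.3%, 16.2%, 30.1%, 29.1% and 27.5% in libraries 1 to 9. Its 3 highest values were in libraries 7 to 9, which share a code stem, and its lowest in library 6. For mt-Co1, the catalytic subunit of complex IV, the share was 17.8% in library 6 and between 10.6% and 14.0% in the other 8. mt-Nd1 of complex I ranged from 8.28% in library 6 to 12.7% in library 3. mt-Cytb, the single mitochondrial subunit of complex III, was steadier, at 11.6% to 13.4%.

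**Figure D2:**
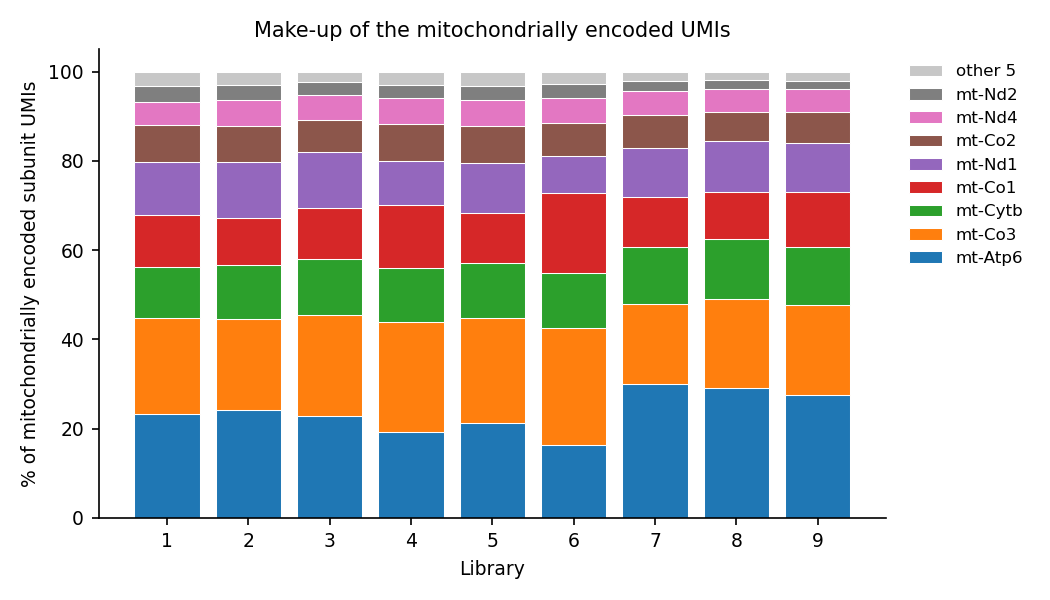
Make-up of the mitochondrially encoded UMIs of each library, as % of all UMIs of the 13 genes, stacked from mt-Atp6 at the bottom with the 5 lowest genes summed at the top. The mt-Atp6 segment is longest in library 7 at 30.1% and shortest in library 6 at 16.2%.

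The remaining genes were lower. mt-Co2 of complex IV ranged from 6.57% to 8.36% of mitochondrial UMIs, mt-Nd4 from 5.09% to 5.91% and mt-Nd2 from 1.99% to 3.52%. mt-Nd3, mt-Nd4l, mt-Nd5 and mt-Atp8 each stayed at or below 1.25%. mt-Nd6, the gene on the opposite strand, was the lowest of all, at 0.0248% to 0.0609%. These are UMIs from transcript ends, which were not divided by length. As CPM, the UMIs of a gene per 1000000 UMIs of the library, mt-Atp6 differed most, from 4132 CPM in library 6 to 33869 CPM in library 9. The smallest difference was that of mt-Atp8, from 162 CPM in library 8 to 452 CPM in library 1.

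The 83 nuclear subunits were compared between libraries as CPM after adding 10 CPM to both values, and a gene counted as different when the highest library was at least 2 times the lowest and reached 50 CPM. Of the 78 subunits that reached 50 CPM in some library, 37 were different, 47.4%, against 72.1% of all 5040 genes tested, and all 13 mitochondrial genes were. The median ratio of highest to lowest library was 1.97 for the nuclear subunits, 4.36 for the mitochondrial genes and 2.81 for all genes. Over UMIs outside the mitochondrial, hemoglobin and hormone genes, 13 of 78 were different, 16.7%, against 67.3% of all genes. Without libraries 4 to 6, an alternative added after seeing the data, 8 of 78 were, 10.3%, against 57.4%. In cells of at least 1000 UMIs 64 of 78 were, 82.1%, against 87.0%. At 1.5 times in place of 2 times, 74 of 78 were, 94.9%, against 93.4% of all genes, so that at this lower threshold the nuclear subunits were near the background. The 5 that never reached 50 CPM were Cox7b2, Cox8b, Cox6a2, Atp5s and Atp5sl.

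Among the 70 nuclear subunits of at least 50 CPM in every library, the 5 with the largest ratio came from 4 complexes. Cox5a of complex IV was at 440 CPM in library 1 and 116 CPM in library 6, a ratio of 3.58. Uqcrb of complex III was at 927 CPM in library 9 and 277 CPM in library 6, a ratio of 3.27. Uqcrc1, a large core protein of complex III, was at 267 CPM in library 3 and 75.6 CPM in library 6, a ratio of 3.24. All 5 were lowest in library 6, with their highest values in libraries 1, 2, 3 and 9. Sdhb, the iron-sulfur subunit of complex II, had a ratio of 2.87 and Atp5o, in the stalk of complex V, of 2.66.

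These ratios depended on the scale. Over UMIs outside the mitochondrial, hemoglobin and hormone genes they were 2.40 for Cox5a, 2.37 for Uqcrb, 2.18 for Uqcrc1, 1.94 for Sdhb and 1.77 for Atp5o. Over all UMIs without libraries 4 to 6 they were 1.59, 2.11, 2.10, 1.69 and 1.52, so that Cox5a, Sdhb and Atp5o were below 2 times.

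Over all UMIs the steadiest 5 were Ndufa6, Atp5g2, Ndufb11, Cox7a2l and Ndufb5. Ndufa6 of complex I stayed between 336 and 438 CPM, a ratio of 1.30. Atp5g2, which encodes the ring subunit c of ATP synthase, stayed between 231 and 320 CPM, a ratio of 1.37, and was highest in library 4. Ndufb11 had a ratio of 1.41 and Ndufb5 of 1.52, and Cox7a2l, a factor in joining complexes III and IV, stayed between 184 and 280 CPM. Outside the mitochondrial, hemoglobin and hormone genes these were no longer the steadiest 5, with ratios of 1.58 for Ndufa6, 1.83 for Atp5g2, 1.56 for Ndufb11, 2.12 for Cox7a2l and 1.53 for Ndufb5. Over all UMIs library 9 held the highest value for 25 of the 78 nuclear subunits, and libraries 1, 3 and 2 for 16, 15 and 13. Library 6 held the lowest for 38 and the highest for 3, and library 5 the lowest for 25. Hormone genes took 37.9% and 30.0% of UMIs in libraries 6 and 5. Outside the mitochondrial, hemoglobin and hormone genes, both libraries were lowest for fewer subunits. There library 6 was highest for more, among them Uqcrh, Cox7c and Ndufa2. No tally over all genes stands beside these counts.

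Cell types were taken from the study's list for library 7, held here for 1999 cells of 12 labels, 8 of them with at least 50 cells. The labelled types carried their markers. All 6 fixed markers of microglia, endothelial cells, astrocytes, VSMCA (vascular smooth muscle cells), pericytes, EPC (ependymocytes) and macrophages were found in the cells so labelled, with the summed markers at 1.07% of UMIs in astrocytes, the lowest of these 7, and 2.50% in VSMCA, the highest. The 55 Neuron Glutamatergic cells held Syt1 at 1106 CPM, Snap25 at 953 CPM and Meg3 at 896 CPM. Stmn2, Snhg11 and Rbfox3 were lower, at 267, 152.5 and 57.2 CPM. These 6 neuron markers summed to 0.343% of their UMIs against 2.12% in the 18 Neuron Other cells, where Meg3 was at 14470 CPM. Microglia markers summed to 0.191% of UMIs in the Neuron Glutamatergic cells and endothelial markers to 0.137%. Glutamatergic neurons are named here by that label, since the 6 markers are of neurons in general. The 43 cells labelled Oligodendrocyte went against their label, since of their markers Cldn11 had 63 UMIs, Mbp 1 UMI, and Mag and Mobp none.

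In library 7 the mitochondrial share set the cell types further apart than the nuclear share, and the 2 orders differed. The mitochondrial share was 26.7% (26.3% to 27.0%) in Neuron Glutamatergic cells, 12.1% in astrocytes, 10.9% in VSMCA, 7.46% in EPC, 7.14% in pericytes, 6.62% in endothelial cells, 4.12% in macrophages and 3.68% (3.63% to 3.74%) in microglia. No neighbours in that order had overlapping intervals, but these cover counting error only and not the spread between cells. In cells of at least 1000 UMIs macrophages, at 3.875%, were below microglia, at 3.964%. The nuclear share was 4.29% (4.22% to 4.36%) in VSMCA, 3.23% in EPC, 3.23% in pericytes, 3.14% in endothelial cells, 2.58% in astrocytes, 2.45% in macrophages, 1.91% in microglia and 1.75% (1.64% to 1.86%) in Neuron Glutamatergic cells. EPC, pericytes and endothelial cells overlapped in their intervals, as did astrocytes and macrophages. The glutamatergic neurons were therefore first by mitochondrial and last by nuclear share, and VSMCA first by nuclear share.

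**Figure D3:**
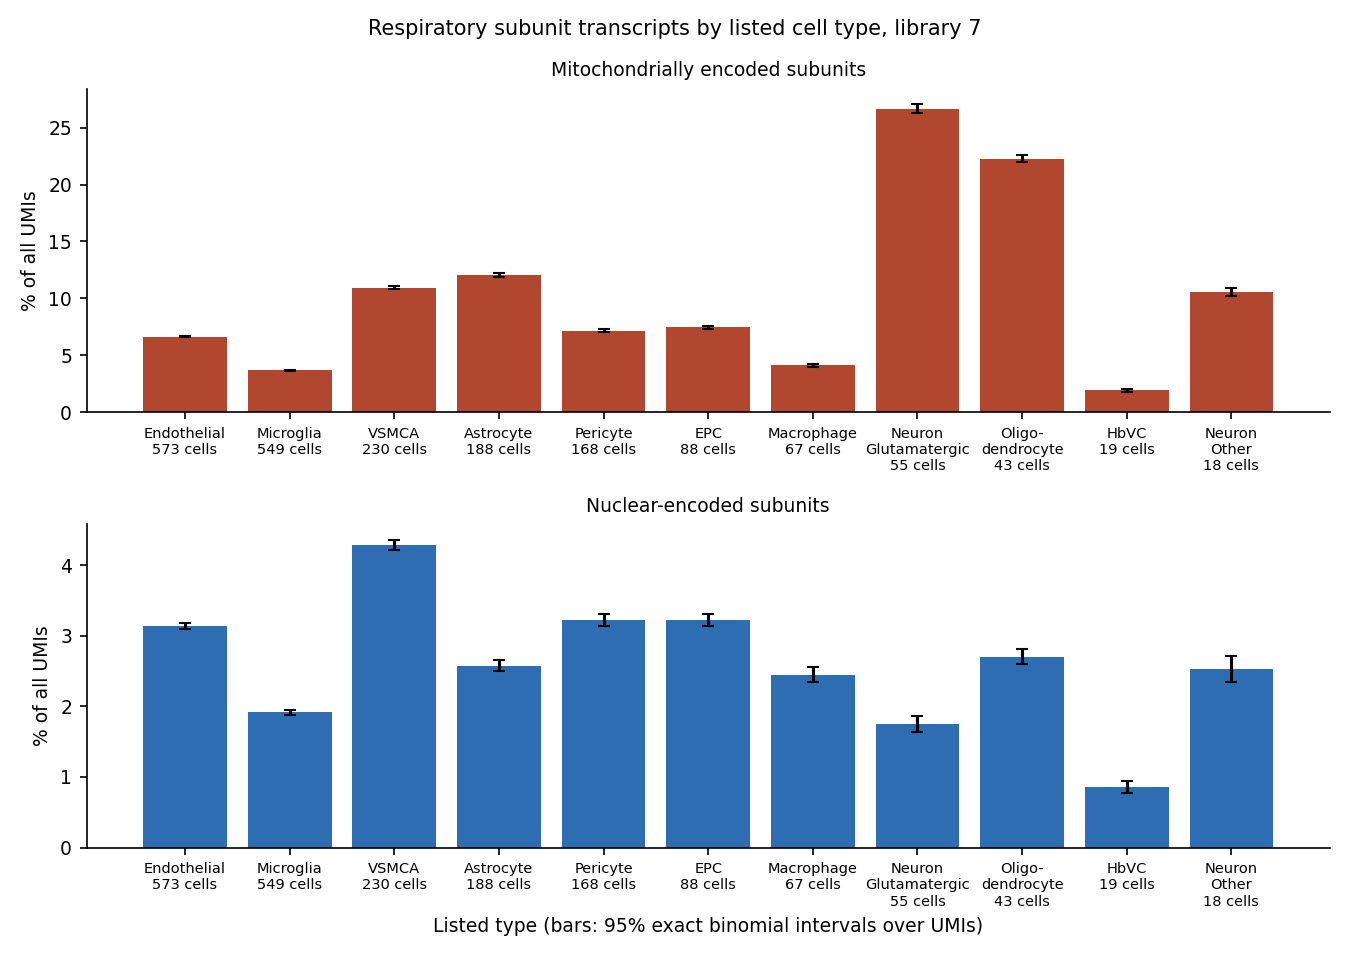
Share of UMIs (%) of the mitochondrially encoded (top) and nuclear-encoded subunits (bottom) in each listed cell type of library 7 with at least 18 cells, with exact 95% binomial intervals over UMIs. Neuron Glutamatergic cells reach 26.7% on the upper axis and 1.75% on the lower, and VSMCA are highest on the lower axis at 4.29%.

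The ratio of mitochondrial to nuclear UMIs was 15.3 (14.3 to 16.3) in Neuron Glutamatergic cells and 4.68 in astrocytes, and it stayed between 1.68 and 2.55 in the other 6 types. A high mitochondrial share lowers every other share of the same cells. Out of UMIs other than mitochondrial, hemoglobin and hormone genes, glutamatergic neurons had 2.45% (2.29% to 2.61%) nuclear subunits, above the 1.99% (1.95% to 2.03%) of microglia, and VSMCA stayed highest at 4.83%. Their last place by nuclear share thus depended on the mitochondrial UMIs. The nuclear RNA Malat1 was 1.46% of UMIs in these neurons and between 5.03% and 18.4% in the other 7 types, and hemoglobin genes were 1.91% against at most 0.851%. The part of RNA quality and of free RNA in the neuronal value was not tested. Without cells over 10% mitochondrial UMIs, 8 of these neurons were left, with a mitochondrial share of 5.50%, next to 8.14% in VSMCA and 6.74% in astrocytes, so that they no longer came first. Of the 55 glutamatergic neurons, 47, or 85.5% (73.3% to 93.5%), exceeded 10% mitochondrial UMIs. The same was seen in 114 of 230 VSMCA, 49.6%, in 79 of 188 astrocytes, 42.0%, in 23 of 549 microglia, 4.19%, and in 0 of 67 macrophages, which allows up to 5.36%. The smaller labels gave 22.3% mitochondrial UMIs in the 43 cells labelled Oligodendrocyte, 10.6% in the 18 Neuron Other cells and 1.94% in the 19 HbVC (hemoglobin-expressing vascular cells), where hemoglobin filled 69.0% of UMIs.

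Among the 8 types of at least 50 cells, all 13 mitochondrial genes were highest in Neuron Glutamatergic cells. In the 43 cells labelled Oligodendrocyte some were higher still, such as mt-Cytb at 32330 CPM against 31232 CPM and mt-Nd5 at 1339 CPM against 1239 CPM. Others were lower there, such as mt-Atp6 at 66657 CPM against 74799 CPM. A gene was called led by a type when that type was at least 2 times the next highest of the 8 types, after adding 10 CPM, and reached 50 CPM. For 6 of the 13 this held, 46.2%, against 36.8% of all 7038 genes tested. mt-Nd3 was 3.07 times its level in astrocytes, the next type. mt-Co2 was 2.90 times and mt-Nd1 2.88 times the astrocyte level, at 22785 and 39487 CPM in the neurons. mt-Co3, mt-Nd5 and mt-Atp6 were at 2.23, 2.16 and 2.06 times the next type. The lowest type was microglia for mt-Co1, mt-Co2, mt-Co3, mt-Atp6, mt-Atp8, mt-Nd3 and mt-Nd4 and macrophages or EPC for the rest. Make-up differed less between types of library 7 than between libraries for mt-Atp6, which took 28.0% to 31.9% of mitochondrial UMIs in the 8 types. mt-Nd1 took 14.8% in glutamatergic neurons and 6.57% in EPC, and mt-Cytb ranged from 10.0% to 14.2%, both further apart than between libraries.

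Nuclear subunits were seldom led by a type. Of the 77 that reached 50 CPM in some type, 3 were, 3.90%, against 36.8% of all genes. With at least 200 CPM in the highest type 3 of 64 were, 4.69%, against 47.5% of all genes. At 1.5 times in place of 2 times 9 of 77 were, 11.7%, against 54.0%, in cells of at least 1000 UMIs 1 of 79, 1.27%, against 34.1%, and with free RNA subtracted 6 of 77, 7.79%, against 41.4%. The 3 were Cox4i2 and Ndufa4l2 in pericytes and Cox8a in VSMCA, all of complex IV. The 6 below 50 CPM were Cox8b, Cox7b2, Atp5s, Cox6a2, Cox7a1 and Atp5sl. Over all UMIs VSMCA held the highest value for 43 of the 77, endothelial cells for 10, pericytes for 9 and EPC for 8. Glutamatergic neurons held the lowest for 35, macrophages for 17 and microglia for 14. No tally over all genes stands beside these counts, so they do not tell the subunits from other genes. The neuronal count also depends on the scale. Outside the mitochondrial, hemoglobin and hormone genes the summed nuclear share was 2.45% in these neurons and 1.99% in microglia.

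Against all other listed cells together, 68 of 75 nuclear subunits were higher in VSMCA, with a median fold of 1.46 against 0.877 over all genes. At least 2 times higher were 10 of 75, 13.3%, close to the 11.7% of all genes, and none was at least 2 times lower, against 26.2% of all genes. These were Cox8a, Cox6c, Cox4i2 and Ndufa4l2 of complex IV, Uqcr10 of complex III, and Ndufa13, Ndufa5, Ndufb9, Ndufb10 and Ndufs7 of complex I. Ndufa13 was at 1493 CPM in VSMCA and 558 CPM in the other cells. Cox6c was at 2019 CPM against 895 CPM. In microglia 70 of 75 were lower, with a median fold of 0.612 against 0.888 over all genes, and 11 of 75, 14.7%, were at least 2 times lower, against 24.4% of all genes. In macrophages 58 of 75 were lower, with a median of 0.824, next to 0.821 over all genes. In glutamatergic neurons 64 of 75 were lower, with a median of 0.648, next to 0.869 over all genes and with mitochondrial genes at 26.7% of their UMIs, and 25 of 75, 33.3%, were at least 2 times lower, against 34.0% of all genes, while none was at least 2 times higher, against 32.7%. Astrocytes had 32 higher and 44 lower with a median of 0.942, next to 0.868 over all genes, and EPC 55 higher of 76 with a median of 1.17, next to 1.14. For the counts of subunits merely higher or lower, no tally over all genes is given. In macrophages and EPC, where the medians were near those of all genes, these counts do not tell the subunits from other genes.

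Calls past 2 times in the remaining types were as follows. In pericytes 4 of 77 were higher, 5.19%, against 14.4% of all genes, and none lower, against 15.7%. Among these were Cox4i2, Ndufa4l2 and Cox6b2, the last at 94.6 CPM against 16.2 CPM in the other cells. In EPC 2 of 76 were higher, 2.63%, against 26.1% of all genes, namely Ndufb5 at 511 CPM against 221 CPM and Ndufa12 at 634 CPM against 296 CPM, both of complex I. Also in EPC 2 of 76 were lower, 2.63%, against 19.7%, Cox4i2 and Ndufa4l2. Endothelial cells had the same 2 genes lower, 2.67% of 75 against 15.7% of all genes, and none higher, against 19.7%. In astrocytes 6 of 76 were lower, 7.89%, against 26.8% of all genes, among them Uqcrb at 365 CPM against 758 CPM and Ndufa1 at 141 CPM against 347 CPM, and none was higher, against 21.3%. In macrophages 11 of 75 were lower, 14.7%, against 27.7%, and none higher, against 13.6%, and in microglia none was higher, against 17.3%. Ndufv1, which binds NADH, was at 12.0 CPM in macrophages against 77.6 CPM. In these 67 cells 4 UMIs of a gene make 48.2 CPM, so the macrophage level of Ndufv1 rests on very few UMIs.

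The nuclear subunit with the most UMIs in each complex is given next. Ndufa13 led complex I over the listed cells at 686 CPM, and its range was 426 CPM in microglia to 1493 CPM in VSMCA. Sdhb led complex II at 191 CPM and ranged from 114 CPM in glutamatergic neurons to 260 CPM in VSMCA. Uqcr11 led complex III at 783 CPM, with 229 CPM in glutamatergic neurons and 1311 CPM in VSMCA. For complex V the first was Atp5l at 930 CPM, with 324 and 1370 CPM in the same types. Each of these was highest in VSMCA. Of the UMIs of nuclear subunits, complex I took 33.5% to 35.7% across libraries and 29.0% to 39.4% across types, and complex II the least, 1.19% to 1.97% and 1.32% to 2.07%.

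Cox8a, a small subunit of complex IV found in most tissues, had the most UMIs of the nuclear subunits over the listed cells, 1074 CPM, with no division by length. Its level was 2594 CPM (2417 to 2780) in VSMCA, 1291 CPM in EPC, 1120 CPM in macrophages, 1034 CPM in pericytes, 930 CPM in astrocytes, 788 CPM in endothelial cells, 651 CPM in microglia and 629 CPM (433 to 884) in glutamatergic neurons. VSMCA stood alone, 2.00 times EPC and thus right at the threshold, and at 1.94 times EPC in cells of at least 1000 UMIs it was below it. Between libraries Cox8a ranged from 773 CPM in library 5 to 1578 CPM in library 1, so library 7 with 993 CPM was not its highest. Its muscle-type counterpart Cox8b stayed at 0.272 to 12.1 CPM in the 9 libraries.

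Cox4i2 is the second isoform of subunit 4 of complex IV, known from lung and from oxygen-sensing vascular cells, whereas Cox4i1 is the general one. Cox4i2 is on chr2:152754173-152765037, plus strand (GRCm38). Its level was 737 CPM (605 to 889) in pericytes, 256 CPM (203 to 320) in VSMCA and 54.0 CPM (37.6 to 75.1) in endothelial cells. The remaining 5 types had 11.7 to 35.3 CPM, with intervals that overlap each other. Cox4i1 was far more even, from 826 CPM in microglia to 1150 CPM in EPC, with 838 CPM (697 to 999) in pericytes. Pericytes were the type in which the intervals of the 2 isoforms overlapped. After thinning each cell to 500 UMIs, which kept 1980 of the 1999 cells, Cox4i2 had a UMI in 32.9% (25.8% to 40.7%) of pericytes, 10.4% of VSMCA and 0.554% (0.114% to 1.61%) of microglia, a type not known for this isoform. Median depths before thinning were 726.5 UMIs per pericyte and 796 per microglial cell.

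Ndufa4l2 had the same order. It is a paralog of Ndufa4, a subunit first placed in complex I and now in complex IV, and is known to be raised by low oxygen. Ndufa4l2 is on chr10:127514967-127517154, plus strand. Its level was 1332 CPM (1152 to 1531) in pericytes, 477 CPM (403 to 561) in VSMCA, 98.7 CPM in endothelial cells and 12.0 to 64.7 CPM in the other 5 types. Ndufa4 went the other way between the vascular types, with 1136.5 CPM (1056 to 1222) in endothelial cells, 993 CPM in VSMCA and 521 CPM (411 to 651) in pericytes. In pericytes Ndufa4l2 therefore exceeded Ndufa4, with intervals that do not overlap, and in no other of the 8 types. In thinned cells Ndufa4l2 had a UMI in 45.1% (37.4% to 53.1%) of pericytes and 0.738% (0.201% to 1.88%) of microglia.

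The pericyte lead of both genes rested on the shallower cells of that label. In the 133 pericytes with under 1000 UMIs, Cox4i2 was at 1075 CPM (874 to 1309) and Ndufa4l2 at 1966 CPM (1690 to 2274). In the 35 with at least 1000 UMIs they were at 179 CPM (85.9 to 329) and 286 CPM (164 to 465). VSMCA of that depth had 247 CPM (191 to 314) and 475 CPM (396 to 565). VSMCA thus came first for both genes, but the intervals of the 2 types overlapped. Ndufa4 ran the other way, with 228 CPM (141 to 349) in the shallower pericytes and 1003 CPM (757 to 1302) in the deeper ones. Cox4i1 did not separate them, at 782 CPM (612 to 985) and 931 CPM (695 to 1221). The 6 pericyte markers also differed, with 1.78% of UMIs in the shallower and 0.639% in the deeper cells, while endothelial markers had 0.0662% and 0.159%. VSMCA themselves showed no such split, with Cox4i2 at 321 CPM (171 to 550) under 1000 UMIs. The part of the make-up of the label in these differences was not tested.

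The sequences of the 2 pairs are shown where they are most alike, since long shared runs would let reads of a pair be mixed up. The longest run of identical bases in transcripts of Cox4i1 and Cox4i2 is 14 bases, and in those of Ndufa4 and Ndufa4l2 28 bases, both within the coding sequence and shown here in capitals.
Cox4i1 with Cox4i2: GAATGGAAGACAGT
Ndufa4 with Ndufa4l2: GCTGGGACAGAAAGAACAACCCAGAGCC

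**Figure D4:**
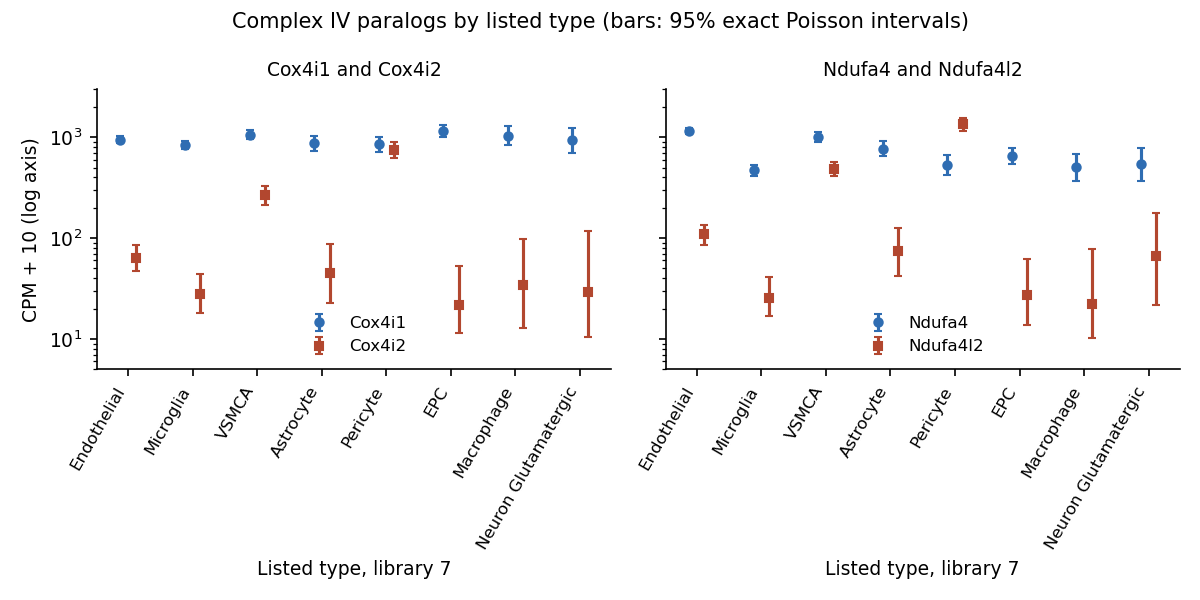
CPM plus 10 on a log axis of Cox4i1 and Cox4i2 (left) and of Ndufa4 and Ndufa4l2 (right) in the 8 listed types of library 7 with at least 50 cells, with exact 95% Poisson intervals. Cox4i2 and Ndufa4l2 are highest in pericytes, at 737 and 1332 CPM, while Cox4i1 stays between 826 and 1150 CPM.

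Between libraries Cox4i2 and Ndufa4l2 had the largest ratios of all nuclear subunits, 6.66 and 13.9. Without libraries 4 to 6 these were 2.98 and 3.75, and they were no longer the largest 2, with 3.76 for Cox6b2 and 3.71 for Cox7a1. Ndufa4l2 was at 40.7, 47.1, 40.0, 10.8, 13.7, 3.46, 177, 170 and 114 CPM in libraries 1 to 9. Cox4i2 was at 33.5, 25.9, 26.4, 7.06, 12.3, 6.01, 96.7, 94.7 and 68.1 CPM. Libraries 7 to 9 were highest and 4 to 6 lowest for both genes. The gate for pericytes described below held at least 50 cells in libraries 7 and 8 only, at 131 and 128 cells, and the part of the number of pericytes in these levels was not tested.

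The other isoforms were low. Cox7a1 and Cox6a2, known from heart and skeletal muscle, reached 59.5 CPM in library 9 and 12.8 CPM in library 7, while Cox7a2 was at 382 to 702 CPM and Cox6a1 at 381 to 825 CPM. Cox6b2, known from testis, was at 94.6 CPM in pericytes and 62.4 CPM in library 9, beside 460 to 841 CPM of Cox6b1 in the libraries. Of the 3 genes for subunit c, Atp5g1 was highest in VSMCA at 435 CPM, as was Atp5g2 at 347 CPM and Atp5g3 at 295 CPM, each within the interval of the next type. Atp5g1 and Atp5g2 share a run of 21 coding bases.

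The genes outside the subunits whose pattern was most like these 3, by Pearson's r of log2(CPM + 10) over the 8 types, were the following. For Cox4i2 they were Frk (r = 0.983), Gm12002 (r = 0.975) and Gucy1b3 (r = 0.97). For Ndufa4l2 they were Tbx3os1 (r = 0.993), Gper1 (r = 0.991) and Mgp (r = 0.979). Mgp, matrix Gla protein, reached 2907 CPM in pericytes. For Cox8a they were Bmpr1a (r = 0.966), St5 (r = 0.946) and Hmgn3 (r = 0.946), each highest in VSMCA. All points come from 1 library, and the genes were picked for their r.

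To follow cell types into libraries without a list, cells were gated on their markers, at least 3 of the 6 of 1 type and at most 1 of any other. In library 7 the gates picked the listed type for 97.5% to 100% of the listed cells they held in the microglia, endothelial, astrocyte, VSMCA, pericyte, EPC and neuron gates, which took 13.7% of listed neurons and 86.2% of listed microglia. Gates with at least 50 cells in a library are reported.

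The ends of the order by nuclear share were alike across libraries. VSMCA had the highest nuclear share in 8 of the 8 libraries with at least 50 gated VSMCA, at 3.93% to 4.69% of UMIs. Microglia had the lowest in 7 of the 7 libraries with at least 50 gated microglia, at 1.74% to 2.21%. Both counts were the same out of UMIs other than mitochondrial, hemoglobin and hormone genes. Between these 2 gates endothelial cells had 2.53% to 3.07%, EPC 3.05% to 3.46% and the neuron gate 2.28% to 3.00%. At 3 markers astrocytes varied most by library, with 3.68%, 3.71% and 3.70% in libraries 1, 2 and 3 and 2.46% and 2.45% in libraries 7 and 8. At 2 markers the neuron gate, which then took in libraries 8 and 9, varied most, 1.93 times against 1.58 times in astrocytes. In library 7 gated endothelial cells, at 3.07%, were above astrocytes, and in libraries 1, 2 and 3, at 3.05%, 2.53% and 2.96%, below them. In library 5, which had no microglia gate of 50 cells, the neuron gate was lowest of 5.

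The mitochondrial share had no such fixed order. Astrocytes had the highest in 5 of 9 libraries, VSMCA in 3 and microglia in 1, and the lowest was in the microglia, neuron or endothelial gate. Within the microglia gate the share was 3.12% in library 4, 3.52% in library 7, 5.56% in library 2 and 9.29% in library 3, a ratio of 2.98 between the ends, with 6.44%, 4.93% and 8.91% in libraries 1, 8 and 9. The median of the 86 cells of library 3 was 4.24%, and the highest median was that of library 9, at 6.17%. Within the endothelial gate it ranged from 4.17% in library 5 to 10.6% in library 9, 2.54 times. Within the astrocyte gate it ranged from 4.18% in library 6 to 14.6% in library 9, 3.50 times. Library 9 was thus highest in the endothelial, astrocyte, VSMCA and EPC gates, as it was over all cells. Nuclear shares within these gates of 3 markers differed by at most 1.51 times. Hormone genes made up 14.8% of UMIs in gated microglia of library 4. In the neuron gate they made up 17.6%, 8.01% and 28.0% in libraries 4, 5 and 6, against 8.01% in gated astrocytes of library 6, and at 2 markers 33.5%, 27.9% and 39.9%, which in libraries 4 and 6 is above the 30.3% and 37.9% of the whole library. The markers of this gate are therefore not enough to call its cells in libraries 4 to 6 neurons, and the part of hormone RNA in the lower shares there was not tested. The neuron gate had 4.81% to 5.52% mitochondrial UMIs in libraries 1 to 3 and 3.07% to 6.19% in libraries 4 to 6, and libraries 7 to 9 had too few cells for a value at 3 markers. At 2 markers, 70 gated neurons of library 8 had 23.9% (23.6% to 24.2%) and 58 of library 9 had 18.2% (17.9% to 18.5%), beside the 26.7% of the listed glutamatergic neurons of library 7.

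**Figure D5:**
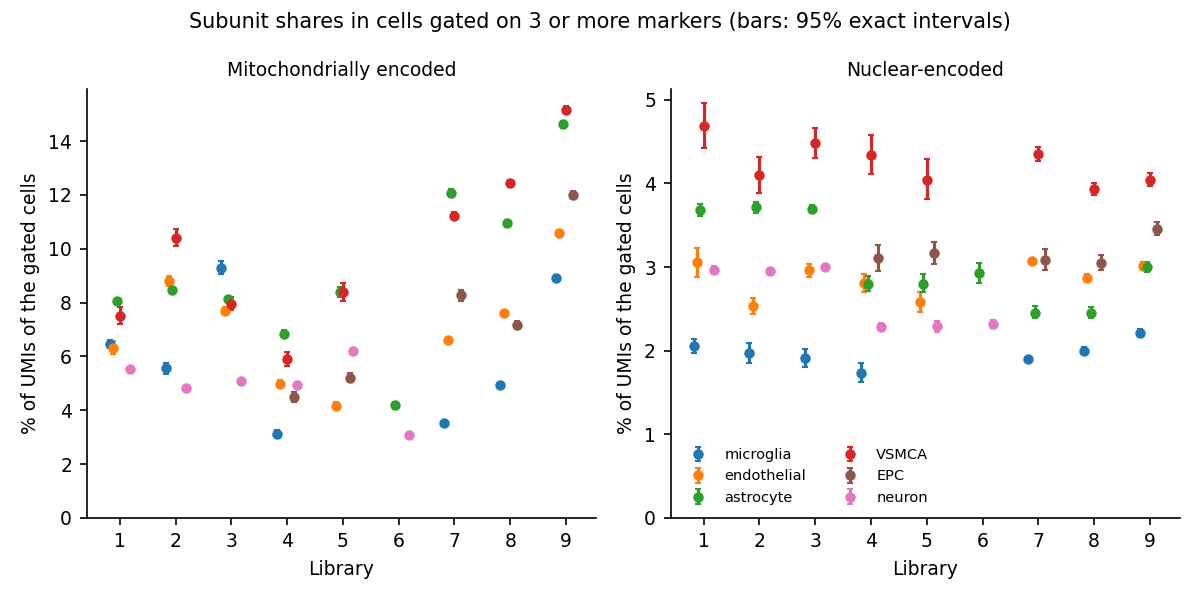
Share of UMIs (%) of mitochondrially encoded (left) and nuclear-encoded subunits (right) in cells gated on at least 3 markers, by library, for gates with at least 50 cells in at least 5 libraries, with exact 95% intervals. VSMCA are the highest and microglia the lowest on the right wherever they are plotted, and on the left library 9 holds the highest values of 4 gates.

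Neighbouring pathways were described by lists. Of 17 glycolysis genes 5 were led by a type, against 36.8% of all genes. Aldoc, the brain aldolase, was at 3901 CPM in astrocytes and 172 CPM in the next type, and it is also a fixed astrocyte marker. Pfkm and Eno1 were led by astrocytes as well, at 194 and 488 CPM, Hk2 by microglia at 528 CPM, and the neuronal enolase Eno2 by glutamatergic neurons at 439 CPM. Aldoa and Ldhb, with Aldoc the 3 highest of the list, had no leading type. Glycolysis genes took 0.804% of UMIs in astrocytes and 0.163% in endothelial cells, the opposite order to the nuclear subunits in these types. All 17 differed at least 2 times between libraries, against 72.1% of all genes, with the summed share highest in library 2 at 0.820% and lowest in library 6 at 0.173%. The pathway lists are given over all UMIs only, of which hormone genes took 37.9% in library 6. The part of these hormone UMIs in its low values was not tested.

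Of 14 genes of the citric acid cycle and pyruvate dehydrogenase tested, 1 was led by a type, against 36.8% of all genes, namely citrate synthase Cs at 88.2 CPM in astrocytes. Mdh2, Suclg1 and Sucla2 were the highest of the list and had no leading type. Between libraries 10 of 12 differed at least 2 times, against 72.1% of all genes. All 10 were lowest in library 6, again over all UMIs with the hormone genes among them. Of 20 assembly factors tested 5 were led by a type, again against 36.8%. Ndufaf3, Nubpl and Sdhaf4 were led by EPC at 205, 70.4 and 299 CPM. Sdhaf4 helps assemble complex II and the other 2 complex I. Sco2 was led by glutamatergic neurons at 133 CPM, of 52447 UMIs in all. Coa5 was led by macrophages at 96.3 CPM, of 83040 UMIs in all. The leads of Nubpl, Sco2 and Coa5 thus rested on few UMIs, and they are given without intervals. Cox17, Uqcc2 and Cox14 were the highest of the list and had no leading type. Between libraries 1 of 12 assembly factors differed at least 2 times, against 72.1% of all genes. It was Ttc19, named after its values were seen, with 72.9 CPM in library 2 and 14.2 CPM in library 7. Of the carriers and regulators, 0 of 8 were led by a type, against 36.8% of all genes. Slc25a4 and Slc25a5, which exchange ADP and ATP, and Atpif1, an inhibitor of ATP synthase, were the highest of these. Slc25a4 was at 1003 CPM in VSMCA and 197 CPM in microglia, and Slc25a5 was highest in microglia at 649 CPM. Between libraries 5 of 8 differed at least 2 times, against 72.1% of all genes, namely Cycs, Slc25a4, Slc25a5, Ppargc1a and Ucp2, also named after the fact.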

How the data were processed

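UMI counts per gene and cell were deposited by the authors as 1 table. They were made with the 10x Chromium v2 kit and Cell Ranger 2.2.0 on GRCm38, filtered to cell-associated barcodes, and the submitters' processing notes also list R 3.5.3. The annotation release is not given in the sources used here. From these counts, shares of UMIs and CPM were computed with Python 3.11.15, numpy 2.4.6, scipy 1.17.1 and pandas 2.3.3 (figures: matplotlib 3.10.9), keeping all 29571 cells, with no doublet caller. Depth was 1522766 to 5488950 UMIs per library. Exact Clopper-Pearson (shares) and Poisson (sums) intervals at 95% cover counting error only. Folds used CPM + 10, a minimum of 50 CPM and a fold of 2, and the code was tested on simulated data. Cell types came from the study's list, held here in shortened form, so no overlap test was run on it. Cells were thinned to 500 UMIs to compare shares of cells with a UMI. Gates needed at least 3 of 6 markers of a type and at most 1 of any other. Sleep groups and regions were not compared, because the labels do not map 8 of the libraries.

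Named genes were all mitochondrial subunits, the highest nuclear subunit of each complex, subunits led by a type, paralogs, the 5 most and 5 least different between libraries, the 3 highest and any led genes of each pathway list, and the 3 genes most like each led subunit. Some genes past the fold in 1 type against the rest are named besides, and some items are not reported here. The members and lists were chosen with earlier results of these data known. Alternatives were a minimum of 1000 UMIs, leaving out the 5% of cells with the most UMIs or cells over 10% mitochondrial UMIs, means over cells, other denominators, other thresholds, subtraction of free RNA and gates of 2 markers. Leaving out the glutamatergic neurons or libraries 4 to 6, and the split of pericytes and VSMCA at 1000 UMIs, were added after seeing the data. Overlapping mitochondrial genes and nuclear copies of them may share reads.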

Additional observations from a re-analysis of the deposited data

How the results depend on the processing

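Some first or last places changed. That of pericytes for Cox4i2 and Ndufa4l2 passed to VSMCA in cells of at least 1000 UMIs, where the intervals of these types overlapped. That of Neuron Glutamatergic cells for the mitochondrial share passed to VSMCA without cells over 10% mitochondrial UMIs. The lowest nuclear share by type passed to microglia without mitochondrial, hemoglobin and hormone genes. The highest nuclear share passed from library 9 to library 6 without hemoglobin and hormone genes (3.38% and 3.42%), to library 1 in cells of at least 1000 UMIs (3.32% and 3.46%) and to library 3 without cells over 10% mitochondrial UMIs (2.99% and 3.27%). The folds of library 9 given below are thus not always those of the highest library, nor always over the lowest. The lowest nuclear share passed from library 5 to library 6 without the 5% of cells with the most UMIs and as means over cells. It passed to library 8 without hemoglobin and hormone genes. Without cells over 10% mitochondrial UMIs microglia were lowest by nuclear share (1.92%) and pericytes by ratio (1.57). With at least 1000 UMIs macrophages were lowest by mitochondrial share (3.875%). With at least 1000 UMIs, library 9 over 6 for the mitochondrial share was 5.21 (4.83 with all cells), library 9 over 5 for the nuclear share 2.06 (1.61), library 9 over 6 for their ratio 3.24 (3.18) and Neuron Glutamatergic over microglia for the mitochondrial share 6.33 (7.24). The same 4 values without cells over 10% mitochondrial UMIs were 2.84, 1.51, 2.01 and 1.77, with 8 neurons left, and VSMCA over Neuron Glutamatergic for the nuclear share was 2.15 (2.45) and Neuron Glutamatergic over macrophages for the ratio 1.63 (9.07). Without the 5% of cells with the most UMIs the nuclear share gave 1.45, the ratio 3.30 and the neurons 7.50. As means over cells the mitochondrial share gave 4.51, the nuclear share 1.37 and the neurons 7.75. Without hemoglobin and hormone genes library 9 over 6 was 3.15 and library 9 over 5 was 1.18, and without mitochondrial genes too the latter was 1.26 and VSMCA over Neuron Glutamatergic 1.97. Nuclear subunits led by a type numbered 3, and 9 at 1.5 times, 1 (Ndufs1 in astrocytes) in cells of at least 1000 UMIs and 6 with free RNA subtracted. Those different between libraries numbered 37, and 13 without mitochondrial, hemoglobin and hormone UMIs, 74 at 1.5 times, 64 in cells of at least 1000 UMIs and 8 without libraries 4, 5 and 6. With gates of 2 markers, highest over lowest library for the mitochondrial share was 3.65 (3.50 at 3 markers) in astrocytes, 4.22 in endothelial cells, 4.27 in EPC, 2.66 in VSMCA, 9.06 in the neuron gate and 3.31 in microglia, where library 9 took the first place from library 3. Those gates took in library 6 for endothelial cells and EPC, library 5 for microglia, library 9 for pericytes and libraries 8 and 9 for the neuron gate. These had under 50 cells at 3 markers. Pericytes gave 2.51 (1.34), with 14.8% mitochondrial UMIs in the 55 of library 9. Endothelial cells of library 9 over 5 gave 2.52 (2.54). The causes were not tested, beyond the fewer cells or changed denominators of each setting. No paired analysis was made, because the labels do not tie 8 of the libraries to a region or sleep group. The results come from no test.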
